A study of Mus musculus with 5 samples.

Results

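The 10 genes described here encode the enzymes that make, lengthen and desaturate fatty acids: Acly, Acss2, Acaca, Fasn, Elovl6, Elovl5, Scd2, Scd1, Fads2 and Fads1. They were chosen by symbol from the 53700 genes of the deposited count table, and each symbol matched 1 row. RNA was measured in the mouse line MutuDC, immortalised cells that resemble the cDC1 type (conventional dendritic cells specialised in cross-presentation), before and during culture with Fanchinoline, the compound under study. There was 1 library for a vehicle control, taken as 0 h, and 1 library each after 2, 6, 12 and 24 h with Fanchinoline, all from the same line with no other agent named. The series' design text speaks of untreated control cells and of triplicates, whereas the labels say vehicle and the table holds 1 library per time. Whether the control cells received solvent and whether the libraries pool replicates is unsettled, and no source used here gives the dose.

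Fatty acid synthesis starts from cytosolic acetyl-CoA, which Acly makes from citrate and Acss2 from acetate. Acaca (acetyl-CoA carboxylase) turns acetyl-CoA into malonyl-CoA, and Fasn joins these units into palmitate. Elovl6 lengthens saturated and monounsaturated acyl chains and Elovl5 polyunsaturated ones, the stearoyl-CoA desaturases Scd1 and Scd2 place the first double bond, and Fads2 and Fads1 act in turn on the essential fatty acids to give polyunsaturated chains such as arachidonate. Transcription of these genes is classically driven by the SREBP factors, which enter the nucleus when membrane sterols are low, together with the cofactors NF-Y and Sp1. In dendritic cells these lipids serve membrane growth and the precursors of lipid mediators.

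Of the 10 members, 9 had at least 10 CPM (counts scaled to library size with edgeR's TMM factors) in at least 1 library, the level required for a comparison, and Scd1 did not. At 6, 12 and 24 h all 9 compared members stood above vehicle. As measured, Scd2, Fasn, Acaca and Acly led at 12 h, while with transcript length and GC content adjusted the order was Scd2, Acly, Acss2, Fads2, Fasn and Acaca, and Fasn and Acaca were then below 2-fold at every time. Of the measured levels, those of 8 of the 9 were highest in the 12 h library. Each difference between times sets 1 library against another, so none has a replicate check, and the intervals given are 95% exact intervals of a ratio of counts that cover counting error only. The libraries were amplified by PCR and carry no molecular identifiers, so a read is not a molecule. In a bulk culture, more RNA per cell and more cells that carry it cannot be told apart.

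Promoter sequences were taken from RefSeq (GRCm38.p6), which held 7 of the 10 genes. Printed are 4 of them, for members that as measured already stood above vehicle at 2 h (Fasn and Acly) and members that did not (Acss2 and Elovl6). Acaca, Fads2 and Elovl5 also stood above vehicle at 2 h as measured (log2 ratios 0.77, 0.27 and 0.10) and are not printed. No contrast between early and later members can be read from these 4 stretches. Each is the stretch before the gene's annotated start, 5′ to 3′ on the strand of the gene, with capitals for the NF-Y letters CCAAT and the Sp1 letters GGGCGG on either strand.
Fasn, chr11:120824548-120824797, minus strand: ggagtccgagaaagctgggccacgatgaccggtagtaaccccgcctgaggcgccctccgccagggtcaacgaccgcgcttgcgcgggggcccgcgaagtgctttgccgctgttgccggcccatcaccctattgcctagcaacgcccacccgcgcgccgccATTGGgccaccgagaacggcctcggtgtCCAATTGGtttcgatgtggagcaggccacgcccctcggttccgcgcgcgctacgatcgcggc
Acly, chr11:100528001-100528250, minus strand: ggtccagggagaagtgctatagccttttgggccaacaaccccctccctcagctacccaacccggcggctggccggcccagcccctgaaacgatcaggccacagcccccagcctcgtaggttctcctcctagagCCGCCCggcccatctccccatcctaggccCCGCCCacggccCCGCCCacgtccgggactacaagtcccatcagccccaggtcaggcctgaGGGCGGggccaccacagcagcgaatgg
Acss2, chr2:155517793-155517947, plus strand: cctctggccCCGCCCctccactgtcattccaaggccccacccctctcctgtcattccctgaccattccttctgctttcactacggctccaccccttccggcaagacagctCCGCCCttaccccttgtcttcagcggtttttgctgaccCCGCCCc
Elovl6, chr3:129532136-129532354, plus strand: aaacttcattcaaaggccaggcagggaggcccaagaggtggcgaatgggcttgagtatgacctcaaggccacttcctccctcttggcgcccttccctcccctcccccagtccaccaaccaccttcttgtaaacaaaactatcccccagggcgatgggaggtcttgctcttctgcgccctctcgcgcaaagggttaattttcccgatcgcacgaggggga
In the Fasn stretch the run CCAATTGG holds CCAAT on both strands, overlapping, and a further CCAAT lies on the opposite strand upstream of it. The Acly stretch holds GGGCGG at 4 places and the Acss2 stretch at 3, while the Elovl6 stretch holds neither run of letters. The Acss2 stretch shows 155 of the 250 bases before the RefSeq start. The bases left out lie within the annotated gene and hold a CCAAT (73 to 69 bases before that start) and a further GGGCGG (37 to 32).

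Over the 250 bases before the RefSeq start, CCAAT was found in 3 of the 7 member promoters (Acss2, Fasn and Elovl5) and in 33.8% of 32851 mouse promoters, and GGGCGG in 3 of 7 (Acly, Acss2 and Fads2) and 32.7%. The sterol regulatory letters TCACNCCAC were in 0 of 7 and in 1.05% of all promoters, and CACGTG, the letters of a canonical E-box, in Elovl5 alone and in 6.02%. Both strands were searched for exact letters, so a match is a description of the sequence and no match says only that these letters are not in this window. For Acaca the window (84195188 to 84195437 on chromosome 11) lies inside the annotated gene. For Fads2 only 7 of the 250 bases lie before the annotated gene, and its GGGCGG is not among them.

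Among the enzymes that supply acetyl-CoA, Acly (chromosome 11, 100476353 to 100528000 on GRCm38, the build of all gene positions here) was the more abundant. The vehicle library held 252 CPM, and the libraries of 2, 6, 12 and 24 h held 371, 472, 580.0 and 476 CPM. Its log2 ratios over vehicle at these times were 0.56, 0.90, 1.20 and 0.92, with an interval of 1.16 to 1.24 at 12 h. All 4 treated libraries thus lay above vehicle, and the 24 h library was back at the 6 h level.

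Acss2 (chromosome 2, 155517948 to 155585724) had 15.7 CPM in the vehicle library and 15.5, 23.5, 29.8 and 24.6 CPM in those of 2, 6, 12 and 24 h. It did not stand apart from vehicle at 2 h (log2 ratio -0.02, interval -0.20 to 0.15), and its later log2 ratios were 0.58, 0.92 and 0.64. Per kilobase of transcript, Acly was 10.6 times as abundant as Acss2 in vehicle, and 15.9, 13.3, 12.9 and 12.8 times after 2, 6, 12 and 24 h, so the ratio was highest at 2 h. Of the 50-base stretches of the Acss2 transcripts, 7.43% are shared with Ggt7 and Acss2os on the opposite strand, and the library kit does not mark strand, so a part of its counts may belong to those genes.

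Acaca (chromosome 11, 84129672 to 84401651), the carboxylase of the cytosol, stood at 61.0 CPM in the vehicle library and at 104, 133, 147 and 125 CPM after 2, 6, 12 and 24 h. Its log2 ratios over vehicle were 0.77, 1.12, 1.27 (interval 1.19 to 1.34) and 1.03 in the same order. As measured, the vehicle library was the lowest of the 5 and the treated libraries differed less among themselves. With transcript length and GC content adjusted the 2 h value was 0.23 and the 12 h value 0.65, so the gap to vehicle at 2 h was then smaller than the spread among treated libraries. Acaca shares 52.6% of its 50-base stretches with the pseudogene Gm5182, to which only 14 to 52 counts were assigned, or 0.669% to 0.976% of the number for Acaca, so its absolute level is uncertain. The second carboxylase, Acacb, which supplies malonyl-CoA at mitochondria, was at 0.563 CPM or less in every library.

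Fasn (chromosome 11, 120805846 to 120824547), the fatty acid synthase, was the one member to reach a 2-fold difference, as measured, by 2 h. Its vehicle level was 306 CPM, and after 2, 6, 12 and 24 h it held 616, 806, 805 and 626 CPM. The log2 ratio over vehicle was 1.01 (interval 0.98 to 1.05) after 2 h, 1.40 in both the 6 and the 12 h library, and 1.03 after 24 h. By 24 h it was back at its 2 h level: the log2 ratio of 24 h over 2 h was 0.02 (interval -0.0034 to 0.05).

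The elongase Elovl6 (chromosome 3, 129532355 to 129638495), which takes palmitate to stearate, was at 62.2 CPM in the vehicle library and at 59.0, 88.4, 113 and 84.0 CPM after 2, 6, 12 and 24 h. Like Acss2 it was not above vehicle at 2 h (log2 ratio -0.07, interval -0.16 to 0.01), and it then reached 0.51, 0.87 and 0.43. Elovl5 (chromosome 9, 77917364 to 77984519), which lengthens polyunsaturated chains, moved over a narrower range, with 89.9 CPM in the vehicle library, 96.2 and 109.8 CPM after 2 and 6 h, and 114 CPM in both later libraries. Its log2 ratios over vehicle were 0.10, 0.29, 0.35 and 0.34. Of Elovl6's 50-base stretches 4.40% occur in other genes, mostly Gm11295, and of Elovl5's none. The 2 elongases thus differed in shape: Elovl6 was highest at 12 h and lower at 24 h, while Elovl5 levelled off.

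Scd2 (chromosome 19, 44293674 to 44306864) was the most abundant member per kilobase in each of the 5 libraries and had the largest log2 ratio over vehicle at 12 and 24 h. The vehicle library held 488 CPM of it, and those of 2, 6, 12 and 24 h held 754, 1177, 1374 and 1239 CPM. The log2 ratios over vehicle were 0.63, 1.27, 1.49 (interval 1.47 to 1.52) and 1.34 (interval 1.32 to 1.37). The 12 h value lay above that of 99.5% of the 8846 genes compared. Scd2 alone made up 36.4% of the members' counts at 12 h and 29.5% in vehicle.

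Scd1 (chromosome 19, 44394455 to 44407879), the main stearoyl-CoA desaturase of mouse liver and fat, was barely detected in this line. It had 41 counts in the vehicle library and 13, 32, 19 and 59 counts in those of 2, 6, 12 and 24 h, or 1.25, 0.348, 0.754, 0.504 and 1.38 CPM. Its log2 ratio over vehicle was -1.70 at 2 h (interval -2.87 to -0.92) and 0.14 at 24 h (interval -0.45 to 0.76). It did not follow Scd2: its level in the 2, 6 and 12 h libraries was below vehicle, and at 24 h it was not separated from vehicle. The interval at 6 h, -1.44 to -0.03, came close to no difference. The coding sequences of Scd1 and Scd2 are 89.8% identical, and 4.66% of Scd1's 50-base stretches occur in another gene, mostly Scd3 and Scd2. With so few counts, a small share of misplaced Scd2 reads could not be told from Scd1 RNA. The remaining desaturases of the family, Scd3 and Scd4, were at most at 0.212 and 1.38 CPM.

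Fads2 (chromosome 19, 10062765 to 10101746), the delta-6 desaturase that opens the polyunsaturated pathway, was at 256 CPM in the vehicle library and at 308, 374, 449.7 and 374 CPM after 2, 6, 12 and 24 h. The log2 ratios over vehicle were 0.27, 0.55, 0.81 and 0.55. Fads1 (chromosome 19, 10182888 to 10196877), the delta-5 desaturase that acts after it, was at 124, 139.5, 153, 164 and 161 CPM in the same order, with log2 ratios of 0.17, 0.31, 0.41 and 0.38. Neither reached a 2-fold difference. Fads2 over Fads1, per kilobase, was 2.56 at 24 h and 2.27 in vehicle.

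**Figure D1:**
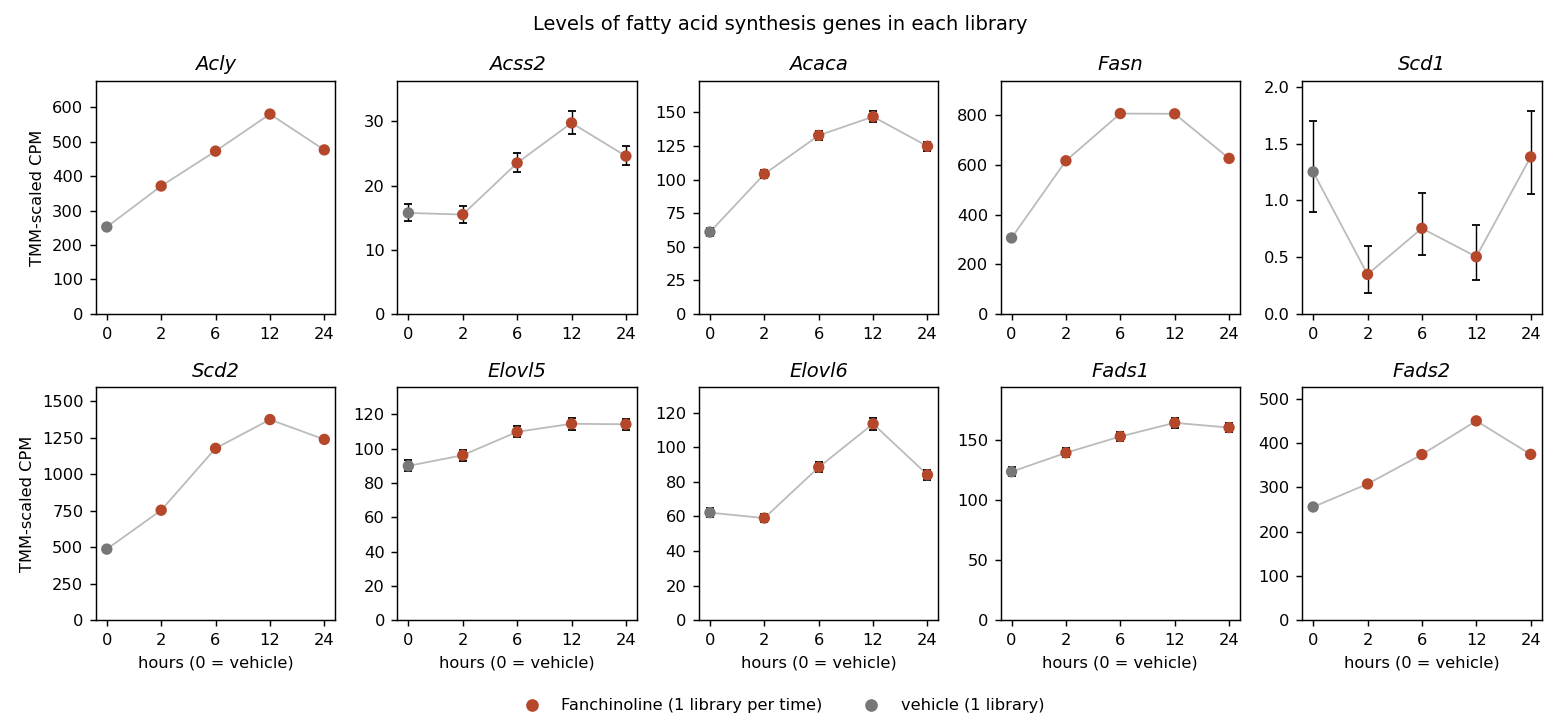
TMM-scaled CPM of each gene (vertical axis, from 0) in the vehicle library (0 h, grey) and after 2, 6, 12 and 24 h of Fanchinoline (red), 1 library per point; bars are 95% exact Poisson intervals of the count. Scd2 goes up to 1374 CPM and Fasn to 806 CPM, Elovl5 and Fads1 stay within a narrow range, and Scd1 stays at or below 1.38 CPM.

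Set side by side per kilobase of transcript in the 12 h library, the order of levels was Scd2 at 252 CPM per kb, Fads2 at 143, Acly at 131, Fasn at 80.1, Fads1 at 47.5, Elovl5 at 41.1, Elovl6 at 19.1, Acaca at 15.4, Acss2 at 10.2 and Scd1 at 0.104. In vehicle the same scale gave Scd2 at 89.4, Fads2 at 81.1, Acly at 57.0, Fads1 at 35.8, Elovl5 at 32.3, Fasn at 30.4, Elovl6 at 10.5, Acaca at 6.41, Acss2 at 5.37 and Scd1 at 0.259. As measured, Fasn thus stood at place 4 in each treated library and at place 6 in vehicle, while Scd2, Fads2 and Acly held the first 3 places in all 5 libraries. These levels are not adjusted for transcript length and GC content. At 24 h over vehicle that adjustment takes the log2 ratio of Fasn from 1.03 to 0.40, Fads1 from 0.38 to 0.30 and Elovl5 from 0.34 to 0.42. Fasn's change of place against Fads1 and Elovl5 therefore depends on the adjustment. Scd2 and Fads2 were close in vehicle and well apart at 12 h. The members together took 0.245%, 0.331%, 0.375% and 0.338% of all counts at 2, 6, 12 and 24 h, and 0.162% in vehicle.

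A gene was called higher when its log2 ratio was at least 1 and its counting interval excluded no difference. At 2 h over vehicle 1 of the 9 compared members was called higher (Fasn), where 0.904% of all compared genes were. At 6 h the count was 3 (Fasn, Scd2 and Acaca) against a background of 1.57%, at 12 h 4 (with Acly) against 2.33%, and at 24 h 3 (Scd2, Acaca and Fasn) against 2.86%. No member was called lower at any of the 4 times, where 0.430%, 0.373%, 0.746% and 1.23% of all genes were. With the threshold at 1.5-fold, 3, 4, 7 and 5 members were higher, beside 7.20%, 9.73%, 10.6% and 12.2% of all genes. The 4 comparisons share the vehicle library, so they are not independent of one another.

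The median log2 ratio of the 9 members was 0.27, 0.58, 0.92 and 0.64 after 2, 6, 12 and 24 h, beside 0.03, 0.04, 0.02 and -0.00 over all compared genes. Counting intervals lay above no difference for 7 of 9 members at 2 h, where 41.3% of all genes did, and for 9 of 9 at 6, 12 and 24 h, where 43.7%, 42.2% and 41.6% did. As measured, the members that lay at vehicle level at 2 h, Acss2 and Elovl6, were thus above it at the 3 later times.

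A tilt with transcript length, whose source was not tested, bears on these ratios. Long transcripts had higher ratios than short ones in each treated library over vehicle: after 2, 6, 12 and 24 h the median of the longest quintile exceeded that of the shortest by 0.61, 0.67, 0.72 and 0.78 on the log2 scale. Between consecutive treated libraries the same difference was 0.06, 0.04 and 0.06. Acaca (9513 bases), Fasn (10050), Scd2 (5455) and Elovl6 (5951) belong to the longest quintile, Acly (4426) to quintile 4, and Acss2, Elovl5, Fads1 and Fads2 (2782 to 3460 bases) to the middle one. The tilt therefore touches Fasn and Acaca most.

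With log2 ratios adjusted for transcript length and GC content by a smooth fit over all compared genes, Fasn was at 0.28, 0.64, 0.70 and 0.40 at 2, 6, 12 and 24 h, and Acaca at 0.23, 0.53, 0.65 and 0.38. Scd2 kept 0.33, 0.96, 1.17 and 1.02, and Acly 0.31, 0.67, 0.98 and 0.71. The 4 members of middling length moved less at 12 h, where Acss2 stood at 0.91, Fads2 at 0.76, Elovl5 at 0.45 and Fads1 at 0.32. At 2 h Fads2 was at 0.15, and Fads1 at 0.05 with an interval that included no difference (-0.01 to 0.11). Elovl6 lay below vehicle at 2 h (-0.23, interval -0.32 to -0.14), and was at 0.29 at 6 h, 0.58 at 12 h and only 0.07 at 24 h (interval -0.01 to 0.15). Adjusted for length alone, or set against the 200 genes nearest in length, its 2 h value was -0.35 and -0.38. After the adjustment 0, 0, 1 and 1 members were called higher at 2, 6, 12 and 24 h, Scd2 in both cases, where 0.464%, 0.690%, 1.38% and 1.66% of all genes were. The adjusted median of the members was 0.23, 0.53, 0.70 and 0.42, so the size of the difference from vehicle depends on the adjustment. Adjusted values were above 0 for 7 of 9 members at 2 h and for 9 of 9 at 6, 12 and 24 h, where 55.6%, 57.8%, 53.1% and 49.0% of all genes were. Adjusted counting intervals lay above no difference for 6, 9, 9 and 8 of 9 members in that order, where 37.9%, 41.7%, 39.2% and 36.8% of all genes did.

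**Figure D2:**
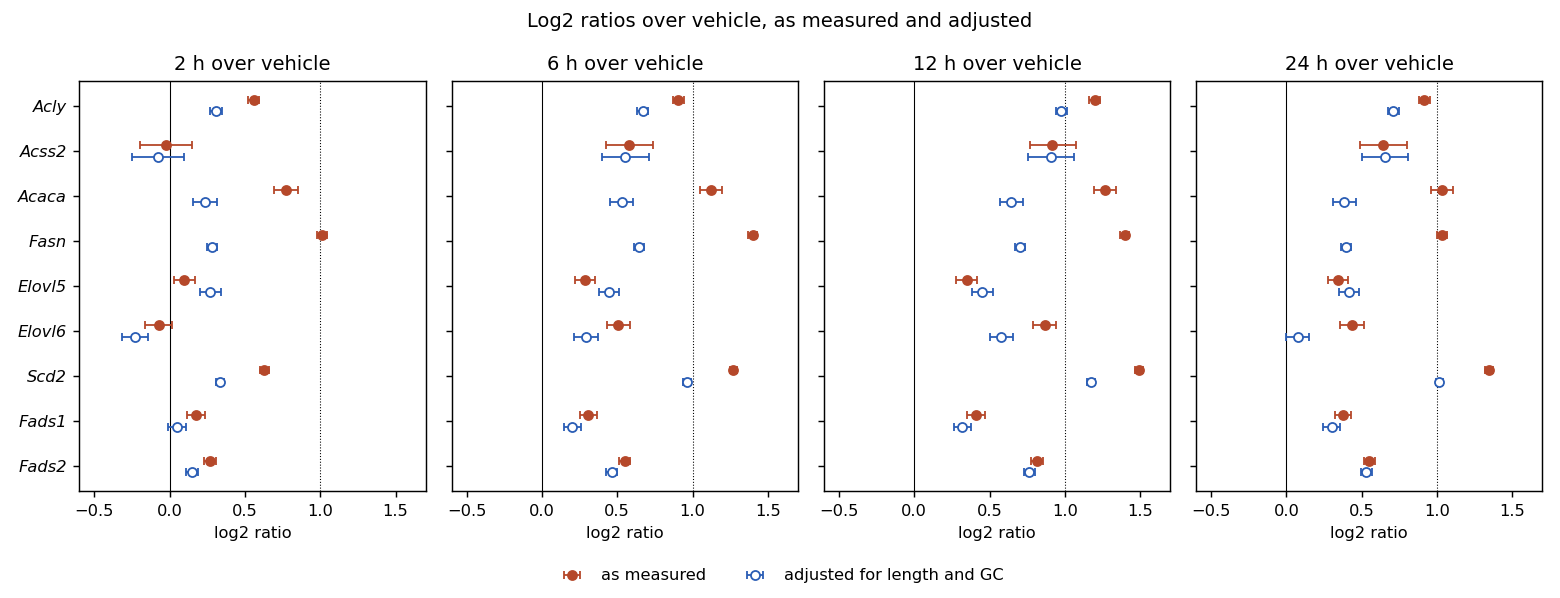
Log2 ratio over vehicle (horizontal axis) of the 9 compared genes at each treated time, as measured (red, filled) and adjusted for transcript length and GC content (blue, open), with 95% exact counting intervals; the dotted line marks a log2 ratio of 1. Fasn and Acaca move furthest to the left when adjusted, and of the adjusted values Scd2 alone lies beyond the dotted line at 12 and 24 h.

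**Figure D3:**
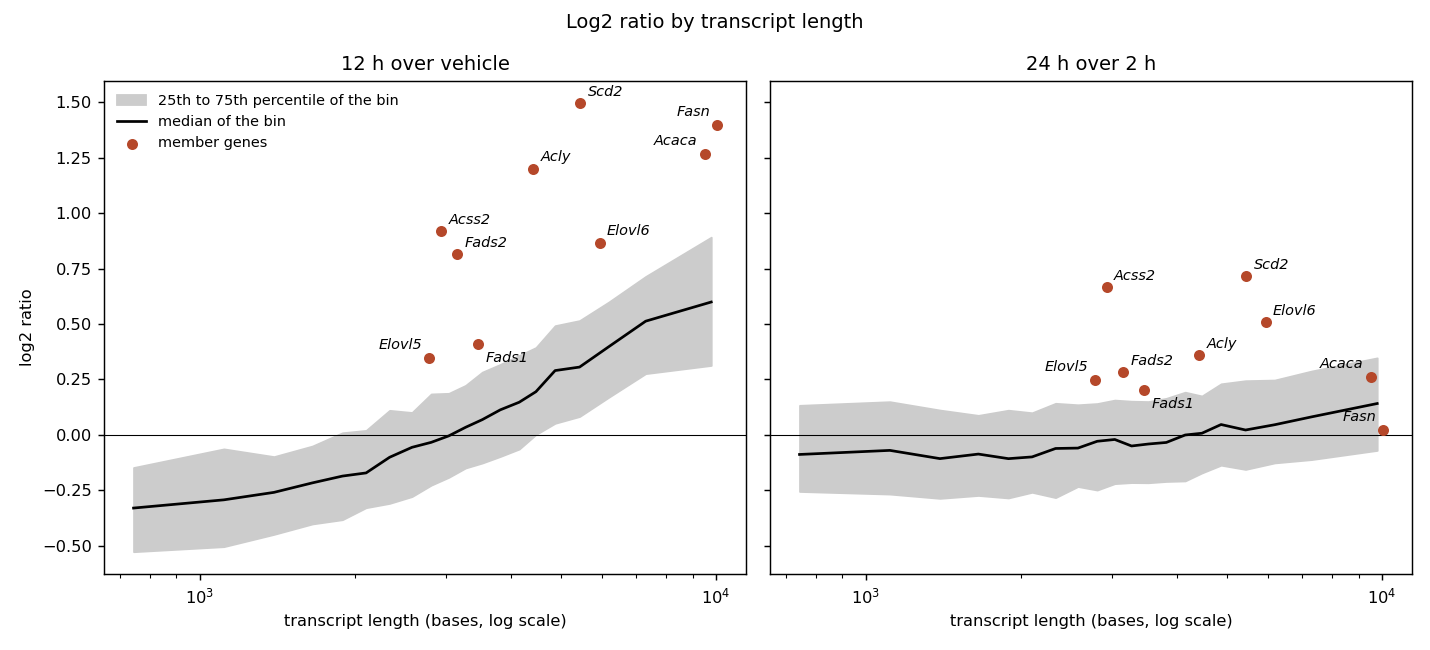
Log2 ratio (vertical axis) against transcript length in bases (log scale) for 12 h over vehicle, left, and 24 h over 2 h, right; the line is the median and the band the interquartile range of compared genes in bins of length, and red points are the 9 members. The band climbs with length on the left and is nearly flat on the right, where Scd2, Acss2 and Elovl6 lie clear above it and Fasn lies at 0.02, within the height of the band.

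Comparisons within the treated libraries leave out the vehicle library and most of the length tilt. From 6 h over 2 h the log2 ratio was 0.64 for Scd2 (interval 0.62 to 0.66), 0.60 for Acss2, 0.58 for Elovl6, 0.39 for Fasn, 0.35 for both Acaca and Acly, 0.28 for Fads2, 0.19 for Elovl5 and 0.13 for Fads1. All 9 intervals lay above no difference, where 26.7% of all genes did, and none of the 9 reached 2-fold, where 0.226% did; 2 reached 1.5-fold (Scd2 and Acss2), where 0.837% did. Acss2 and Elovl6, the members not above vehicle at 2 h, came next after Scd2 at this step. Both readings rest on the same 2 h library, where a low level also gives a higher ratio here, so they are not independent.

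At 12 h over 6 h the ratios were smaller. Elovl6 was at 0.36, Acss2 at 0.34, Acly at 0.30, Fads2 at 0.27, Scd2 at 0.22 and Acaca at 0.14, while Fasn did not differ beyond counting error (-0.0020, interval -0.02 to 0.02). Of the 9 intervals 8 lay above no difference, against 26.9% of all genes, and none of the 9 reached 2-fold, where 0.0565% did.

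At 24 h over 12 h the direction turned. Elovl6 was at -0.43 (interval -0.50 to -0.37), Fasn at -0.36, Acly at -0.28, Acss2 at -0.27, Fads2 at -0.27, Acaca at -0.23 and Scd2 at -0.15. Intervals of 7 of the 9 lay below no difference, where 34.4% of all genes did, and Elovl5 (-0.0034) and Fads1 (-0.04) did not differ beyond counting error. None was called lower, where 0.0565% of all genes were. With length and GC adjusted the 9 values ranged from -0.51 to -0.02.

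Over the whole treated span, 24 h over 2 h, Scd2 was at 0.72, Acss2 at 0.67 and Elovl6 at 0.51, followed by Acly at 0.36, Fads2 at 0.28, Acaca at 0.26, Elovl5 at 0.25 and Fads1 at 0.20. Fasn, which was already at 616 CPM by 2 h, was at 0.02. Intervals of 8 of 9 members lay above no difference, where 33.7% of all genes did, and none was called, where 0.859% of genes were called higher. Scd2 and Acss2 passed 1.5-fold, where 3.98% of genes did. This span shares the 2 h library with the step of 6 h over 2 h, so they are not independent. At this span the GC content of a transcript mattered more than its length: the median of the quintile richest in GC lay below that of the poorest (log2 difference -0.36). With both adjusted, Fasn was at 0.10 and Scd2 at 0.68.

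**Figure D4:**
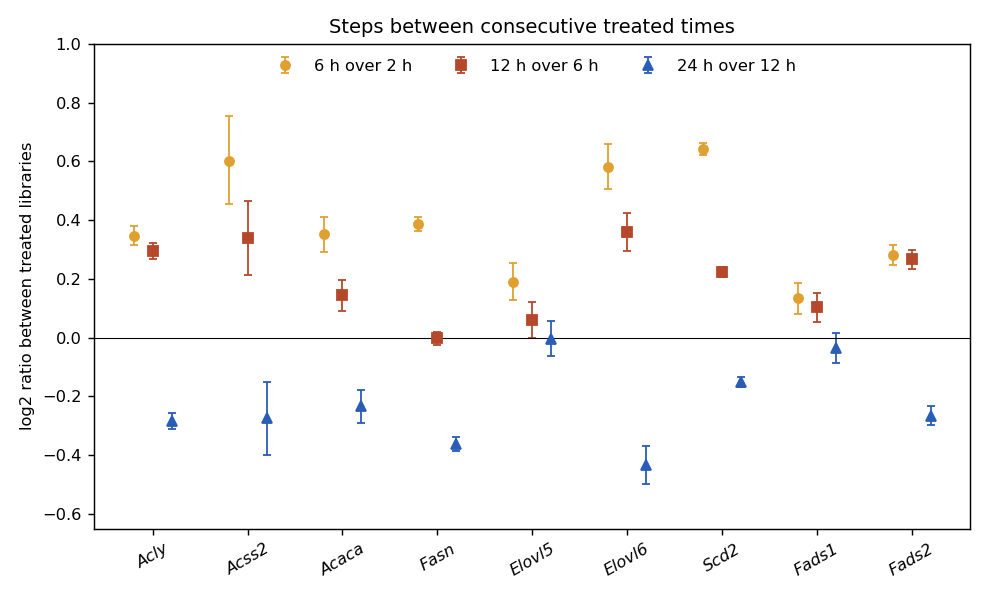
Log2 ratio between consecutive treated libraries (vertical axis) for the 9 compared genes, with 95% exact counting intervals. The points for 6 h over 2 h lie above 0, and those for 12 h over 6 h lie above 0 except Fasn at 0. Those for 24 h over 12 h lie below 0, with intervals that include 0 for Elovl5 and Fads1.

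The highest of the 5 libraries was the 12 h one for 8 of the 9 compared members, where 14.2% of all compared genes had their highest level. Fasn was highest at 6 h, by 806 CPM to 805 CPM, a difference within counting error. For Elovl5 the 12 and 24 h libraries were likewise not separated, nor were they for Fads1.

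For a trend over all 5 libraries, a slope on log2(hours + 1) was fitted per gene and tested by quasi-likelihood in edgeR, with Benjamini-Hochberg adjustment across 13877 genes. Scd2 (slope 0.33 per unit, adjusted p = 0.0225, quasi-likelihood test), Acly (0.23, adjusted p = 0.0345) and Acaca (0.24, adjusted p = 0.0444) had positive slopes that passed. Their levels did not rise throughout: at 24 h over 12 h their log2 ratios were -0.15, -0.28 and -0.23. An upward slope passed for 5.17% of all genes tested. The test draws its spread from the departure from a straight line, which leaves each gene 3 residual degrees of freedom, and exposure and hours in culture change together in it.

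The other members had positive slopes that did not pass. Fads2 had a slope of 0.15 (adjusted p = 0.0540 by the same quasi-likelihood test), Acss2 0.20 (0.0562), Fads1 0.09 (0.0722), Elovl5 0.08 (0.0813), Elovl6 0.17 (0.108), Fasn 0.24 (0.113) and Scd1 0.03 (0.933). Without the vehicle library none of the 10 passed (8.49% of genes did with an upward slope), with adjusted p-values of 0.0923 for Scd2, 0.195 for Acly and 0.274 for Acaca by the quasi-likelihood test, and without the 12 h library no member and 0% of genes passed with an upward slope (0.120 for Scd2). With transcript length and GC content as offsets 6 passed, where 5.81% of genes did with an upward slope: Scd2, Acly, Fads2, Elovl5, Acss2 and Fads1, and no longer Acaca (slope 0.11, adjusted p = 0.0584, quasi-likelihood test).

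The genes around this pathway were read from lists drawn up by function. Of 10 genes for the supply of acetyl-CoA, citrate and NADPH, 8 were compared and 1 was called higher at 6, 12 and 24 h: Acat2, a cytosolic thiolase that joins acetyl-CoA units for sterol synthesis. It was at 153 CPM at 24 h and 70.3 CPM in vehicle (log2 ratio 1.12), with 45.9% of its 50-base stretches shared with other genes, chiefly Acat3, so its level is uncertain. Idh1, a source of cytosolic NADPH, was at 0.55 at 24 h, and Acss1, the mitochondrial relative of Acss2, at 0.73. With length and GC adjusted Acat2 was called at 6, 12 and 24 h as before, and Idh1 was called as well at 12 h (1.06). The list's median was 0.16 at 24 h, below the 0.64 of the 9 members.

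The rest of the elongation and desaturation machinery lay nearer to vehicle. Of 18 other elongases, desaturases and partners in the elongation cycle, 8 were compared and 0 were called at any time, with a median of -0.02 at 24 h. Hacd2 (-0.67), a dehydratase of the elongation cycle, Tecr (-0.58), its final reductase, and Cyb5a (-0.42), the electron donor of the desaturases, were below vehicle. As measured, these 3 had the largest ratios of the list in size. With length and GC adjusted Tecr was at -0.27 and Cyb5a at -0.01, while Hacd2 was at -0.73. Elovl1, which lengthens very long saturated chains, was at 189 CPM at 24 h and 218 CPM in vehicle, a log2 ratio of -0.21 (-0.0019 adjusted). The remaining compared genes of the list were above vehicle at 24 h. Hsd17b12 was at 0.33 (0.56 adjusted), Cyb5r3 at 0.30 (0.39), Cyb5b at 0.28 (0.11) and Hacd3 at 0.16 (0.24). The list thus held genes on both sides of vehicle.

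Among other carboxylase and fatty acid synthase-related genes 9 of 10 symbols were found and 5 were compared, with a median of -0.08 at 24 h. Aacs, which makes acetoacetyl-CoA in the cytosol for lipid synthesis, was called higher at 6 h (1.08) and 12 h (1.20) and stood at 0.88 at 24 h. With length and GC adjusted it was called at 12 h (1.14) and not at 6 h (0.95). Ndufab1, the mitochondrial acyl carrier protein, was at -0.90 at 24 h and Mecr, the reductase of mitochondrial fatty acid synthesis, at -0.28. With length and GC adjusted Mecr was at 0.02 and Ndufab1 at -0.94, and Mcat, the mitochondrial malonyl-CoA transferase, was above vehicle both as measured (0.24) and adjusted (0.47).

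Of 21 regulators of lipogenic transcription and of acetyl-CoA carboxylase, 16 were compared and 0 were called at any time, with a median of 0.13, 0.26, 0.31 and 0.19 at 2, 6, 12 and 24 h. Srebf1, which encodes the lipogenic SREBP-1, was at 156 CPM at 24 h and 91.8 CPM in vehicle (log2 ratio 0.76, 0.62 adjusted for length and GC), and already at 0.65 at 2 h (0.36 adjusted). Insig1, an SREBP target that retains the factor in the endoplasmic reticulum, was at 0.88, and its slope passed the trend test (0.21, adjusted p = 0.0199, edgeR quasi-likelihood). Sp1 was at 0.63, and at 0.12 with length and GC adjusted.

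**Figure D5:**
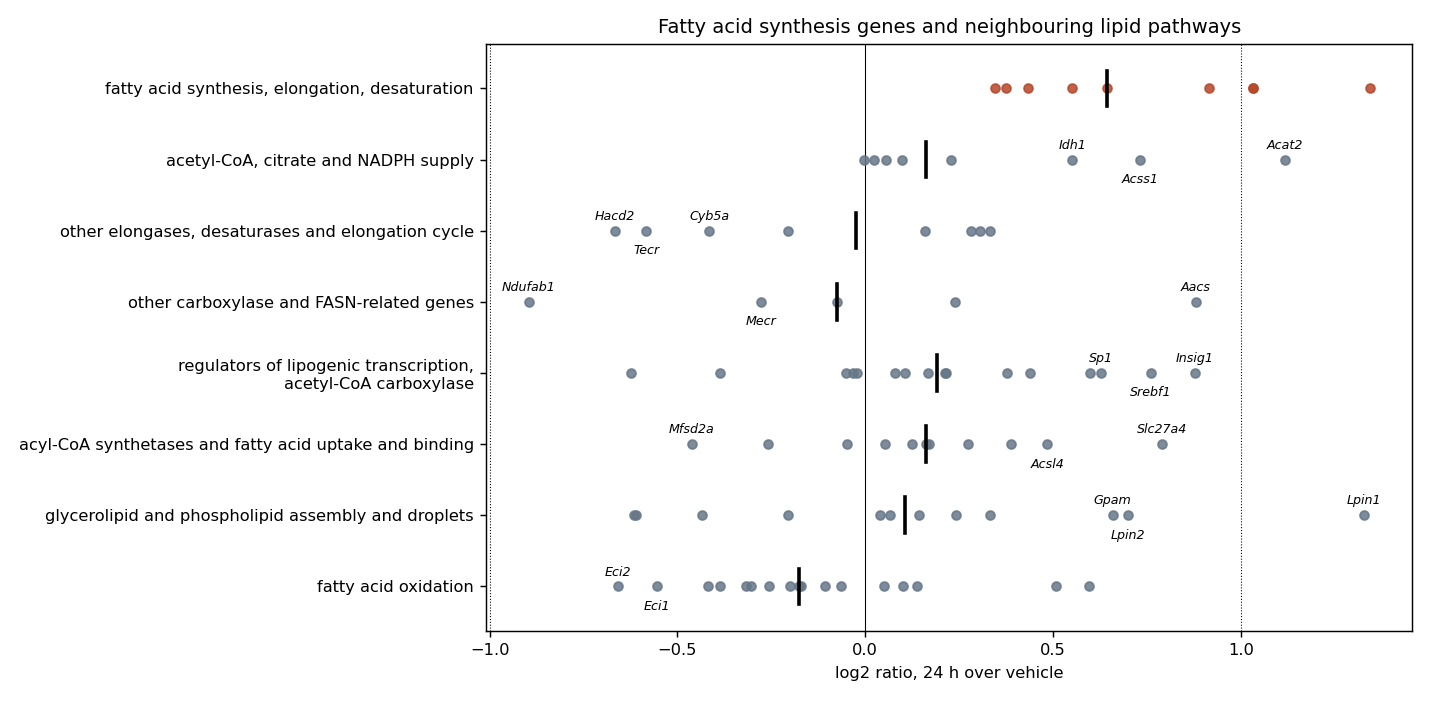
Log2 ratio of 24 h over vehicle (horizontal axis) for the compared genes of the 10-gene set (red, top row) and of 7 lists of neighbouring lipid genes (grey); vertical bars are medians and dotted lines mark log2 ratios of 1 and -1. The top row lies wholly above 0 with a median of 0.64, while the median of the other rows lies between -0.18 and 0.19. The ratios shown are as measured. With length and GC adjusted the top row's median was 0.42 and those of the other rows lay between -0.02 and 0.31.

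Genes most like the members in shape were ranked by the Euclidean distance between log2 CPM profiles over the 5 libraries, each centred on its own mean, among 7843 other genes with at least 10 CPM in every library. Closest to the members' median profile were Ppme1 (distance 0.134), Bmpr1a (0.141), Stat3 (0.150), Rlf (0.155) and Mbnl3 (0.167). Closest to Scd2 were Lpin1 (0.137), a phosphatidate phosphatase of glycerolipid synthesis, Kdm4b (0.142), a histone demethylase, and Stard4 (0.154), a sterol carrier. At 24 h over vehicle these 3 stood at 1.33, 1.36 and 1.21, beside 1.34 for Scd2. With length and GC adjusted Stat3 was at 0.25, and Lpin1, Kdm4b and Stard4 were at 0.98, 1.19 and 0.94.

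The libraries held 33568526 to 42854511 counts, so that 10 CPM stood for 328 to 427 counts and 3 counts, the upper limit that a count of 0 allows, for 0.070 to 0.092 CPM. Of 10 cDC1 markers 9 were at 10 CPM or more in at least 1 library, Xcr1 among them at 276 to 327 CPM, and Itgae was at 2.47 CPM or less. Markers of adipocytes, hepatocytes, lymphocytes and fibroblasts summed to at most 2.25 CPM per cell type and library, with Adipoq, Lep, Alb and Cd3e at 0. Of 7 macrophage markers 4 were at 10 CPM or more, with sums of 126 to 180 CPM over the libraries and Marco and Mertk at 0. Mitochondrial genes took 1.47% to 1.78% of the counts in the treated libraries and 2.58% in vehicle. The cDC1 markers summed to 7601 CPM in vehicle, 8531 CPM at 2 h and 5779 CPM at 24 h. The most abundant were Irf8 (4259 CPM in vehicle, 3283 CPM at 24 h) and H2-Ab1 (1871 and 1092 CPM). Clec9a (237 and 251 CPM) and Itgax (733 and 746 CPM) were higher at 24 h than in vehicle, and the other cDC1 markers were lower. The part of the mitochondrial difference and of the cDC1 markers' change in the members' ratios was not tested.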

How the data were processed

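The authors deposited raw read counts per gene, in a table with 1 column per library. Per the submitters' processing notes, reads were trimmed with Trim Galore and aligned with HISAT2 to GRCm38, without versions. The counting program, its annotation, its use of strand and its treatment of reads matching several genes are stated in no source used here. Per the labels' protocols, poly-A RNA was made into libraries with a kit that does not mark strand.

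Counts were scaled with edgeR 4.0.16 (limma 3.58.1, R 4.3.3), TMM factors and a prior count of 2 for log2 CPM. The 8846 genes that reached 10 CPM in any library were compared by a rule of size: a log2 ratio of at least 1 with a 95% Clopper-Pearson counting interval that excludes no difference. It compares libraries, not conditions. The slope test used filterByExpr and an adjusted p threshold of 0.05. DESeq2 1.42.0 was an alternative. Length, GC content (for 8835 compared genes) and 50-base sharing came from GENCODE on GRCm38, and the length and GC fit was loess with a span of 0.5. The scripts were tested on simulated counts. Named genes were the members, up to 3 genes per context list (those furthest from vehicle at 24 h), any called, and the nearest profiles. Family members at low levels, Elovl1, Hsd17b12, Cyb5r3, Cyb5b, Hacd3, Mcat and genes sharing sequence were named after their values were seen. Results for some genes are not reported here. Members and lists were chosen with earlier results of these data known.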

Additional observations from a re-analysis of the deposited data

How the results depend on the processing

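Calls by the rule of size depended on the treatment of transcript length and on the threshold. In the order 2, 6, 12 and 24 h over vehicle, members called numbered 1, 3, 4 and 3 as reported, 0, 0, 1 and 1 with length and GC content adjusted, 0, 0, 2 and 1 with length alone adjusted, and 3, 4, 7 and 5 at 1.5-fold. Relative to the 200 compared genes nearest in length, an alternative chosen after seeing the data, they were 0, 0, 2 and 1. Without the filter on low counts Scd1 entered, giving 2 calls at 2 h and 5 at 12 h over vehicle (Scd1 lower in both) and 1 call, Scd1 higher, at 6 h over 2 h, 24 h over 12 h and 24 h over 2 h. At 1.5-fold 2 members passed at 6 h over 2 h and 2 at 24 h over 2 h, against 0 by the rule as reported. Scaling by total counts gave 4 calls at 24 h and otherwise the counts as reported, as did DESeq2 size factors, a prior count of 0.5 and summing rows of a symbol at every comparison. Sizes of ratios with the 24 h library did depend on scaling by total counts. At 24 h over 12 h Acly was then at -0.21 (-0.28 as reported), Acss2 at -0.20 (-0.27) and Acaca at -0.16 (-0.23).

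The trend passed for 3 members as reported, 3 with DESeq2 size factors, 1 with no filter on low counts, 0 with a slope on hours (0 genes in all, with 2713 at an unadjusted p under 0.05), 0 with treated libraries only (5 members unadjusted), 6 with length and GC offsets and 9 with DESeq2's Wald test. Leaving out the 2, 6, 12 or 24 h library gave 5, 1, 0 and 3. The slope of Scd1 was 0.03 as reported and turned to -0.0320 without the 2 h library, -0.284 without the 24 h library and -0.0247 with the offsets. The cause of these changes was not tested. No paired analysis was possible because there is 1 library per time point.

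No library was replicated, Fanchinoline is missing from the vehicle library alone, and no vehicle cells were taken at later times. Compound, hours in culture and whatever set the length balance of the vehicle library cannot be told apart in ratios over vehicle. Depth limits only Scd1, at 13 to 59 counts; the other 9 members had at least 516 counts in each library.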

Other observations

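Further lipid pathways were read in the same way. Of 16 genes for the assembly of glycerolipids and phospholipids, 12 were compared and Lpin1 alone was called higher, at 6 h (1.32), 12 h (1.65) and 24 h (1.33). Its level was 52.4 CPM at 24 h and 20.9 CPM in vehicle, and its slope passed the trend test (0.34, adjusted p = 0.0275 by edgeR's quasi-likelihood test). With length and GC content adjusted it was called at 12 h (1.31) and not at 6 or 24 h (0.98 at each). Lpin2, a second phosphatidate phosphatase, was at 0.70 at 24 h and Gpam, which starts glycerolipid synthesis at mitochondria, at 0.66, and these were 0.35 and 0.26 when adjusted. The list's median was 0.11.

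Of 13 genes for fatty acid activation, uptake and binding, 11 were compared and 0 were called at any of the 4 times over vehicle, with a median of 0.16 at 24 h. Slc27a4, a fatty acid transport protein with acyl-CoA synthetase activity, was at 0.79 and Acsl4, which activates arachidonate, at 0.48, while Mfsd2a, a carrier of lysophospholipids, was at -0.46. Of 18 genes of fatty acid oxidation 17 were compared and 0 were called, with a median of -0.18 at 24 h and -0.02 after adjustment for length and GC content. The isomerases Eci2 (-0.66) and Eci1 (-0.55) were below vehicle. Genes that break fatty acids down thus had a median near that of all compared genes once length was adjusted, beside an adjusted 0.42 for the 9 compared genes of synthesis, elongation and desaturation. That difference was not tested.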
